A study of Macaca mulatta with 102 samples.

Results

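RNA of circulating T cells was compared between macaques treated with KY1005 plus sirolimus about 4 weeks after a transplant of hematopoietic cells and macaques that had been given back their own cells. The comparison took 9 of the 102 arrays of the series, chosen by their group labels, and all probe sets of the value table. KY1005.Siro.D28 held 5 arrays at day 28 after transplant, from animals R.217, R.218, R.219, R.220 and R.221. Auto.D36 held 4 arrays, from animal R.62 at day 30 and from R.200, R.201 and R.202 at day 36. The KY1005.Siro.D28 animals were recipients of donor cells and received KY1005, an antibody to OX40 ligand, with sirolimus, an inhibitor of the kinase mTOR, against graft-versus-host disease. The Auto.D36 animals were recipients of an autologous transplant, for which the labels name no such drug. Both groups had been transplanted, and the labels give neither the conditioning nor the ages. Healthy controls gave 46 arrays from 45 animals, among them all 4 Auto.D36 animals, in the same batch, and 0 of the 5 KY1005.Siro.D28 animals. In all groups CD3 T cells had been sorted from peripheral blood, and their RNA was hybridised to Affymetrix rhesus arrays. The source of the cells, the drugs, the day and the batch all differ between the groups, so their parts in any difference cannot be told apart.

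As background, OX40 is a costimulatory receptor that activated T cells display, and OX40 ligand on antigen-presenting cells engages it to sustain their expansion and survival through NF-kB signalling. mTOR couples growth factor and nutrient signals to protein synthesis, glycolysis and the differentiation of effector T cells, and sirolimus blocks it. T cells that refill an emptied compartment after an autologous transplant divide and take on effector features without facing foreign tissue antigens.

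The deposited values are log2 RMA intensities, on which a difference of 1 is a 2-fold difference. Array medians of the whole series lay between 5.13 and 5.35. Pairwise correlations ran from 0.973 to 0.987 among the 10 pairs of KY1005.Siro.D28 arrays and from 0.946 to 0.981 among the 6 pairs of Auto.D36 arrays, and 0 pairs were identical. The T cell marker CD5 averaged 10.67 in KY1005.Siro.D28 and 10.50 in Auto.D36, and the B cell marker MS4A1 averaged 3.54 in KY1005.Siro.D28 and 4.48 in Auto.D36, under the median of all values (5.21). Other cells' markers were mostly above that median, since 2 of 8 B cell, 1 of 19 myeloid, 1 of 9 NK cell and 0 of 10 platelet genes lay under it in both groups. CD14 of monocytes averaged 6.48 in KY1005.Siro.D28 and 6.86 in Auto.D36, NCAM1 of NK cells 9.97 and 10.04, and PF4 of platelets 8.15 and 9.86. The NCAM1 values are those of its brightest probe set. Another NCAM1 probe set averaged 9.70 and 9.84, and the rest averaged 5.52 or less in both groups. Whether these signals come from other cells was not tested. The KY1005.Siro.D28 arrays carry the batch label 6, and the Auto.D36 arrays carry 2 (R.62) and 4 (R.200, R.201 and R.202). The groups therefore share no batch and were linked only through healthy arrays, 7 in batch 6 and 16 in batches 2 and 4. Values below are fitted log2 differences ± SE, KY1005.Siro.D28 minus Auto.D36, from a limma fit with batch, with Benjamini-Hochberg adjusted p over all probe sets. Since the fit weighs each group against the healthy arrays of its batch, a fitted difference may be larger than that between the means. The deposited values differed little by batch: with the groups in the fit, 0.101% of probe sets differed between batches at an unadjusted p under 0.05, where chance gives 5%. They may have been adjusted for batch before deposit, which no source used here states, and the batch term would then adjust them again. Without that term 2 of the 83 calls among the named genes ended. No within-batch value of the comparison exists, but each group was also set against the healthy arrays of its own batches. Arrays are listed in the order R.217, R.218, R.219, R.220 and R.221, then R.62, R.200, R.201 and R.202.

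Of 31711 probe sets tested, 2531 (7.98%) passed an adjusted p of 0.05, of which 1400 (4.41%) were higher and 1131 (3.57%) lower in KY1005.Siro.D28. That balance was not stable, with 1382 higher and 1390 lower after quantile normalization, 693 and 931 with the healthy arrays of batches 2, 4 and 6 alone, 1815 and 2140 with array weights, and 344 and 457 with 6 arrays of high actin ratio, described below, left out. Among 10718 genes, each represented by its brightest single-gene probe set, 885 (8.26%) passed, of which 336 (3.13%) rose and 549 (5.12%) fell in KY1005.Siro.D28 relative to Auto.D36. The median difference over all genes was -0.05. The shares of 3.13% and 5.12% are the background for the counts of list members below. All 5 KY1005.Siro.D28 arrays lay above all 4 Auto.D36 arrays for 781 genes (7.29%) and below them for 833 (7.77%). The number of probe sets past the threshold depended on single arrays. It was 990 without R.200, 1302 without R.221, 1345 without R.201, 1509 without R.217 and 1519 without R.220. It was 801 when 6 arrays of other groups (4 healthy and 2 Auto.D14) with a high log2 ratio of 3' to 5' actin probe sets, a sign of RNA quality, were left out. Of the 96 genes chosen for naming, 83 passed the threshold, and 25 of these passed it in each alternative fit that tested them and with each array left out in turn. MMP1 and MELK, 2 of the 25, had no value under the stricter filter on low values. The 25 are PGAP1, ZBTB20, MMP1, AXIN2, CHD7, SCML1, IRS2, DAAM1, KLF7, PIM1, RPS16 and BCL2 among the rises and TGFBR2, CD70, MCM3, LAG3, MELK, MKI67, NCAPG, SHCBP1, ST8SIA1, TP63, CCNB2, CX3CR1 and TYMS among the falls. None of the 83 changed sign in these fits, while CD4, FOXP3, TNFRSF4 and TNFSF4, which have no call, took both signs.

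**Figure D1:**
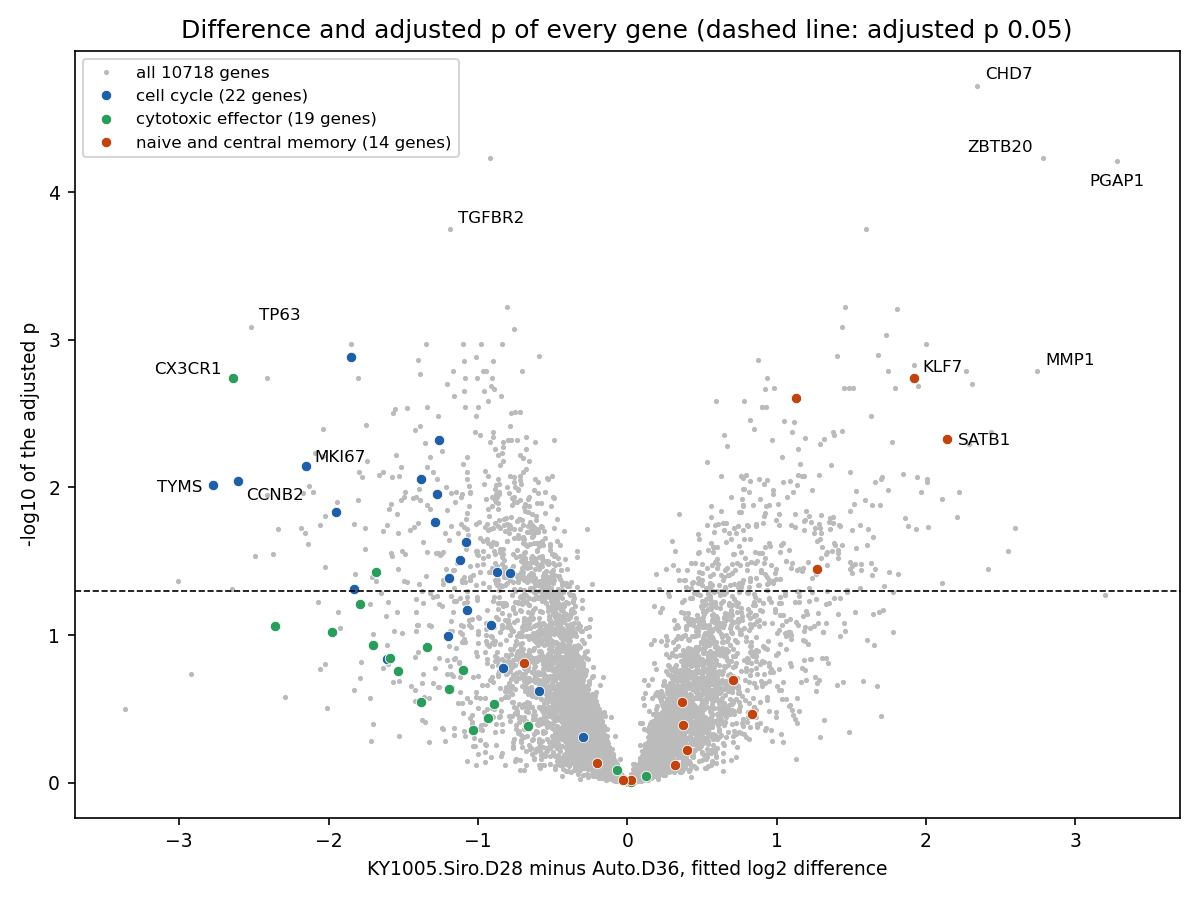
Each point is 1 of 10718 genes, with its fitted log2 difference (KY1005.Siro.D28 minus Auto.D36) on the x axis and -log10 of its adjusted p on the y axis; the dashed line marks an adjusted p of 0.05. The 22 cell cycle genes all lie left of 0, PGAP1 and ZBTB20 lie farthest right among the labelled genes, and CHD7 has the smallest adjusted p.

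The largest rise was in PGAP1, an endoplasmic reticulum enzyme that remodels the glycolipid anchor of membrane proteins. PGAP1 read 9.85, 9.91, 10.08, 10.68 and 10.65 in KY1005.Siro.D28, against 7.79, 7.06, 7.40 and 8.04 in Auto.D36. The groups did not overlap, and the fitted difference was 3.28 ± 0.51 (adjusted p = 6.18e-05). All 5 KY1005.Siro.D28 values also lay above the highest of the healthy arrays, which ran from 5.2 to 8.85, whereas the Auto.D36 values lay within that range. Against healthy controls PGAP1 was 3.30 ± 0.36 higher in KY1005.Siro.D28 and differed by 0.02 ± 0.36 in Auto.D36 (adjusted p = 0.984). Both probe sets of PGAP1 passed, and averaged over both the difference was 2.18.

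Further genes stood above the healthy level in KY1005.Siro.D28 and near it in Auto.D36. MMP1, the interstitial collagenase, read 6.42, 5.22, 3.62, 7.44 and 6.07 in KY1005.Siro.D28, against 3.25, 3.05, 3.26 and 3.48 in Auto.D36. The R.219 array was the lowest of its group and lay within the healthy range of 2.57 to 3.88, and the difference was 2.74 ± 0.55 (adjusted p = 0.00162). Because Auto.D36 lay under 5.21, where signals are near background, the size of the MMP1 difference is uncertain. PIM1, a survival kinase induced by cytokines, read 11.63, 12.20, 11.93, 11.80 and 11.50 in KY1005.Siro.D28, against 10.59, 10.40, 11.08 and 10.77 in Auto.D36. The groups did not overlap (difference 1.38 ± 0.31, adjusted p = 0.00423), and every KY1005.Siro.D28 value exceeded the healthy maximum of 11.38. BCL2, which blocks the mitochondrial route of apoptosis, read 8.44, 8.59, 8.79, 8.58 and 8.87 in KY1005.Siro.D28, against 7.81, 7.42, 7.42 and 7.81 in Auto.D36. Again the groups were apart (difference 1.19 ± 0.27, adjusted p = 0.00464), and all 5 KY1005.Siro.D28 arrays lay above the healthy maximum of 8.21. SOCS2, a feedback inhibitor of cytokine receptors, read 8.99, 10.56, 9.65, 9.04 and 9.33 in KY1005.Siro.D28, against 8.17, 6.96, 7.36 and 6.53 in Auto.D36, a difference of 2.55 ± 0.76 (adjusted p = 0.027). SOCS2 was 3.40 ± 0.54 above healthy controls in KY1005.Siro.D28 and 0.85 ± 0.54 above them in Auto.D36 (adjusted p = 0.363). Its call against Auto.D36 ended without R.200, R.202 or R.218 (adjusted p = 0.05 to 0.063).

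**Figure D2:**
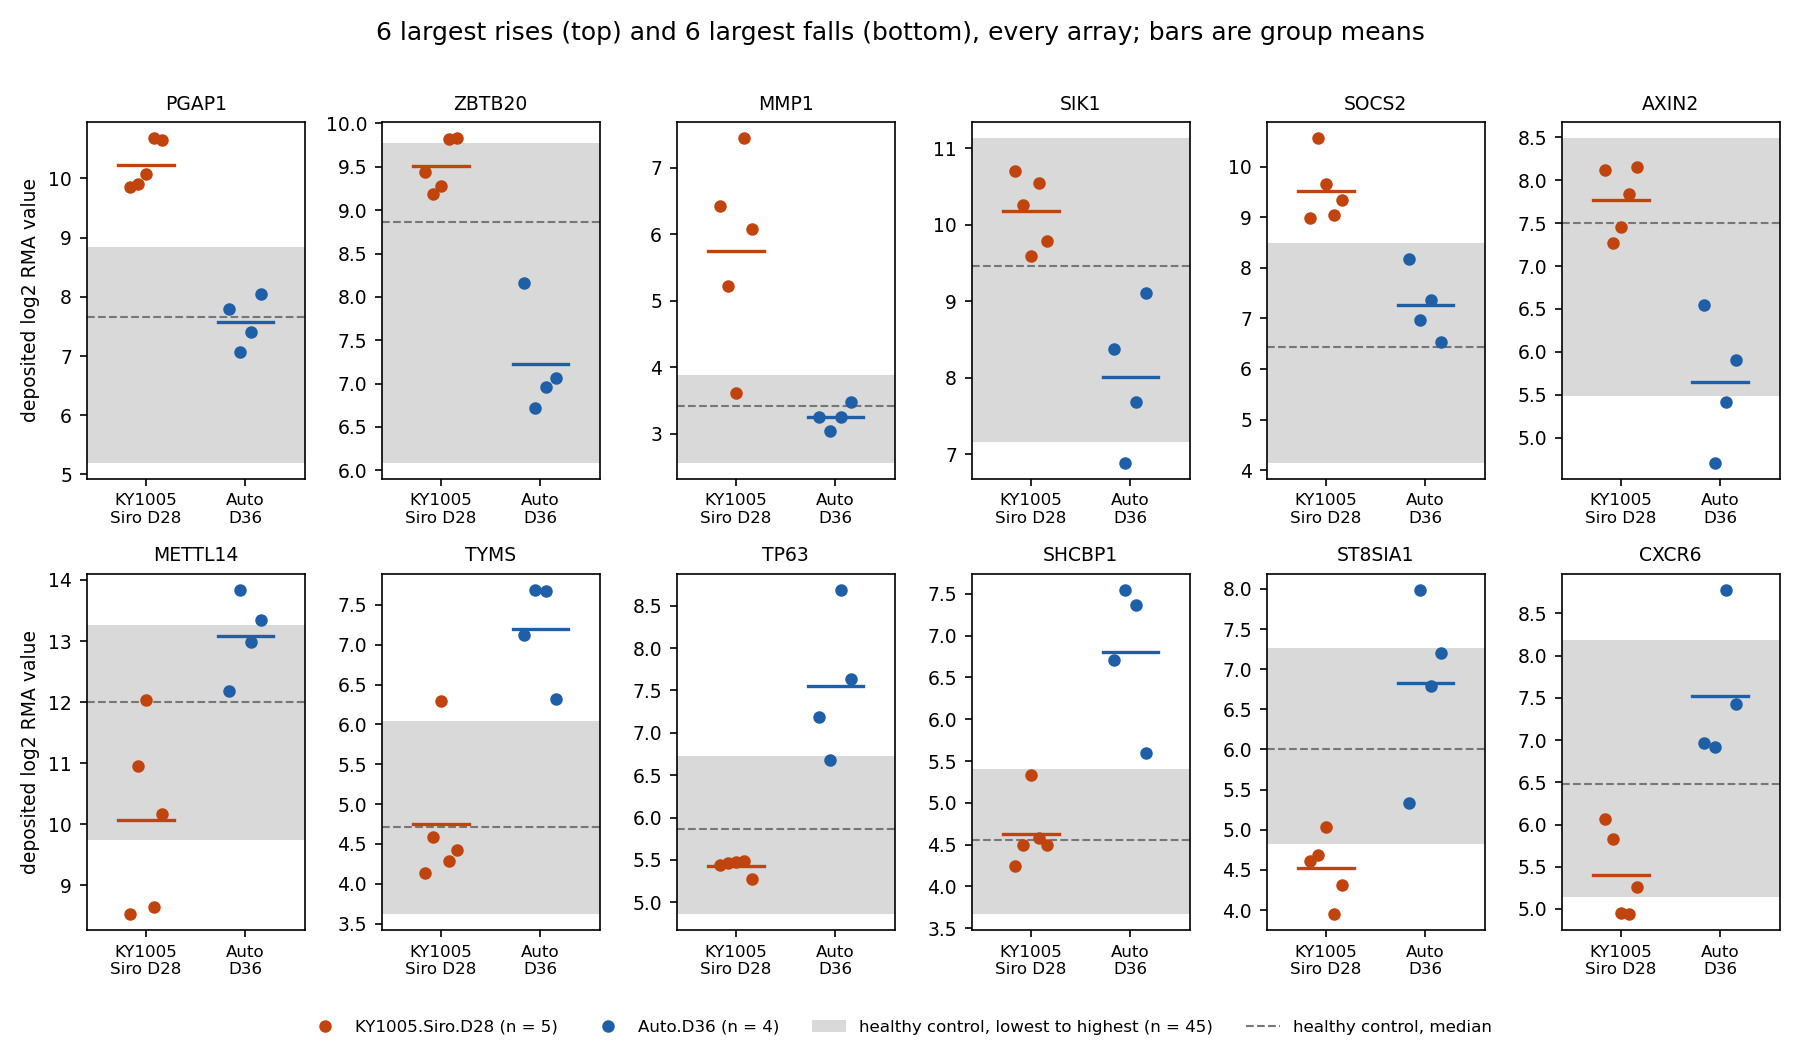
Deposited log2 RMA values (y axis) of 6 genes that rose (top row) and 6 that fell (bottom row) in every KY1005.Siro.D28 and Auto.D36 array, with a bar at each group's mean and a grey band from the lowest to the highest of 45 healthy animals. They are the largest rises and falls among called genes with no overlap between the groups and no opposed probe set. Antigen receptor, MHC and KIR genes were left out. CX3CR1 and CCNB2, whose groups overlapped, are therefore not shown. PGAP1 and SOCS2 lie above the band in KY1005.Siro.D28 alone, and TYMS, TP63 and SHCBP1 lie above it or near its top in Auto.D36.

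For a second set of genes the groups lay on opposite sides of the healthy level. ZBTB20, a zinc finger repressor of the BTB family, read 9.44, 9.19, 9.28, 9.82 and 9.83 in KY1005.Siro.D28, against 8.16, 6.72, 6.96 and 7.06 in Auto.D36, with R.62 the highest of that group. The difference was 2.79 ± 0.43 (adjusted p = 5.87e-05), and the gene was 1.39 ± 0.31 above healthy controls in KY1005.Siro.D28 and -1.40 ± 0.31 relative to them in Auto.D36. CHD7, an ATP-dependent chromatin remodeller, had the smallest adjusted p of the named genes. CHD7 read 8.83, 8.22, 8.42, 8.86 and 9.09 in KY1005.Siro.D28, against 7.62, 5.73, 6.55 and 6.29 in Auto.D36 (difference 2.34 ± 0.34, adjusted p = 1.91e-05), and 3 of its 3 probe sets passed. Of the 4 Auto.D36 values, 3 lay below the lowest healthy value of 7.36. KLF7, a Krüppel-like transcription factor, read 9.64 to 10.28 in KY1005.Siro.D28, against 7.42 to 9.22 in Auto.D36 (difference 1.92 ± 0.39, adjusted p = 0.00181, and 1.15 over its 3 probe sets, of which 1 passed). SCML1, a Polycomb group-like protein, read 6.39 to 6.91 in KY1005.Siro.D28, against 4.09 to 5.25 in Auto.D36 (difference 2.31 ± 0.48, adjusted p = 0.002). SCML1 averaged 4.60 in Auto.D36, under 5.21, so the size of its difference is uncertain. Each Auto.D36 animal also had a healthy array of its own. Relative to it, R.62 was at -0.1 for CHD7, -0.15 for SCML1, -0.35 for KLF7 and -0.87 for ZBTB20. In each gene this was the smallest fall of the 4 animals.

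Against healthy controls only Auto.D36 passed the threshold for AXIN2 and DACT1, and only KY1005.Siro.D28 for DAAM1 and CDK2AP1. Each of these genes was above healthy controls in KY1005.Siro.D28 and below them in Auto.D36. Whether the 2 departures differed in size was not tested. AXIN2, a feedback inhibitor that Wnt signalling itself induces, read 8.12, 7.27, 7.46, 7.84 and 8.15 in KY1005.Siro.D28, against 6.55, 4.71, 5.42 and 5.90 in Auto.D36 (difference 2.44 ± 0.55, adjusted p = 0.0042, and 1.23 over its 4 probe sets). AXIN2 differed from healthy controls by -1.75 ± 0.39 in Auto.D36 and by 0.69 ± 0.39 in KY1005.Siro.D28 (adjusted p = 0.253). DAAM1, a formin that acts downstream of Dishevelled, read 9.27 to 9.70 in KY1005.Siro.D28, against 7.33 to 8.05 in Auto.D36 (difference 2.27 ± 0.46, adjusted p = 0.00163). The other DAAM1 probe set was at 0.31 (adjusted p = 0.277), and averaged over both the difference was 1.29. Against healthy controls DAAM1 was 1.49 ± 0.33 higher in KY1005.Siro.D28 (adjusted p = 0.00122) and at -0.78 ± 0.32 in Auto.D36 (adjusted p = 0.119). CDK2AP1, given below, was 1.52 ± 0.54 above them in KY1005.Siro.D28 (adjusted p = 0.0496) and at -0.90 ± 0.54 in Auto.D36 (adjusted p = 0.332). DACT1, a Dishevelled-binding protein, read 9.25 to 9.82 in KY1005.Siro.D28, against 6.43 to 8.50 in Auto.D36 (difference 2.22 ± 0.57, adjusted p = 0.0107). Relative to the healthy array of the same animal, R.62 was at -0.25 for AXIN2 and -0.1 for DACT1. R.200, R.201 and R.202 were at -1.9, -1.21 and -1.45 for AXIN2 and at -2.25, -0.71 and -1.61 for DACT1. IRS2, an adaptor of insulin and cytokine receptors, read 10.09, 8.39, 9.06, 9.68 and 9.63 in KY1005.Siro.D28, against 8.32, 5.97, 7.25 and 7.13 in Auto.D36, where R.62 came close to R.218 (difference 2.29 ± 0.53, adjusted p = 0.00511). SIK1, a salt-inducible kinase, rose by 2.59 ± 0.73 (adjusted p = 0.0188), or 1.38 over both probe sets, of which the other was at 0.17, and CDK2AP1, which binds the kinase CDK2, by 2.42 ± 0.76 (adjusted p = 0.0356). Without R.200 the adjusted p was 0.0752 for SIK1 and 0.0542 for DACT1, and the call of CDK2AP1 also ended without R.201, R.217, R.220 or R.221 (adjusted p up to 0.112). Without the 6 arrays of high actin ratio the adjusted p was 0.137 for SIK1 and 0.358 for CDK2AP1.

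Genes typical of resting naive or central memory cells were higher where they differed. Of 14 tested members, 4 rose and 0 fell, beside 3.13% and 5.12% of all genes, and the list's median difference was 0.39 against -0.05 over all genes. The 4 are KLF7, given above, SATB1, FOXO1 and FOXP1. SATB1, an organiser of chromatin loops in T cells, read 10.60 to 11 in KY1005.Siro.D28, against 9.31, 8.08, 9.57 and 9.37 in Auto.D36 (difference 2.14 ± 0.49, adjusted p = 0.00468). Another probe set of SATB1 fell past the threshold (-0.87), and over all 4 the difference was 1.05. FOXP1, which keeps T cells quiescent, read 12.22 to 12.51 in KY1005.Siro.D28, against 11.02 to 11.70 in Auto.D36 (difference 1.13 ± 0.24, adjusted p = 0.0025). FOXO1, which drives homing receptor genes of resting T cells, read 10.24 to 10.44 in KY1005.Siro.D28, against 9.10 to 9.75 in Auto.D36 (difference 1.27 ± 0.40, adjusted p = 0.0358). The FOXO1 call ended with any of 6 arrays left out (R.62, R.200, R.201, R.217, R.220 and R.221, adjusted p up to 0.0933) and with the high actin arrays left out (0.252). The lymph node homing receptor CCR7 (0.83 ± 0.51, adjusted p = 0.342) and the transcription factor TCF7 (0.38 ± 0.26, adjusted p = 0.407) did not pass. With the healthy arrays limited to batches 2, 4 and 6 and those of high actin ratio left out, 1 of the 14 members passed as higher.

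Genes of the cell cycle were lower throughout the list. Of 22 tested members, 0 rose and 15 fell, beside 3.13% and 5.12% of all genes. All 22 differences were negative, and the median was -1.23. The members' summed level, as the mean log2 value relative to the healthy mean, ran from -0.26 to 0.56 in KY1005.Siro.D28 and from 0.66 to 1.61 in Auto.D36, against -0.49 to 0.69 in healthy animals. Relative to healthy controls the median over the list was -0.16 for KY1005.Siro.D28 and 1.14 for Auto.D36, 2 comparisons that share their healthy arrays. TYMS, which makes thymidylate for DNA synthesis, read 4.14, 4.59, 6.29, 4.28 and 4.42 in KY1005.Siro.D28, against 7.12, 7.69, 7.68 and 6.32 in Auto.D36. R.219 nearly reached R.202, and the other 4 KY1005.Siro.D28 arrays were well below (difference -2.78 ± 0.70, adjusted p = 0.00968). Because those 4 arrays lay under 5.21, the size of the TYMS difference is uncertain. MKI67, the proliferation marker Ki-67, read 5.85, 6.00, 6.99, 5.84 and 5.62 in KY1005.Siro.D28, against 7.93, 8.51, 8.07 and 7.35 in Auto.D36. The groups did not overlap (difference -2.15 ± 0.52, adjusted p = 0.00714), and each Auto.D36 value lay above the healthy maximum of 7.27. Over the 3 MKI67 probe sets the difference was -1.34.

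MCM3, a subunit of the replicative helicase, read 6.88, 7.70, 8.40, 7.13 and 7.05 in KY1005.Siro.D28, against 9.02, 9.41, 9.26 and 8.45 in Auto.D36 (difference -1.85 ± 0.36, adjusted p = 0.00132). CCNB2, a mitotic cyclin, read 4.64, 5.46, 6.45, 5.34 and 4.96 in KY1005.Siro.D28, against 8.12, 8.03, 7.86 and 6.31 in Auto.D36, so that R.219 and R.202 overlapped (difference -2.61 ± 0.66, adjusted p = 0.00907). CDK1, the mitotic kinase, fell by 1.95 ± 0.53 (adjusted p = 0.0146), and the adjusted p was 0.0533 without R.200. The S phase genes PCNA, CDC6, MCM2 and MCM5 and the mitotic genes CCNA2, CENPE, CENPF, FOXM1 and TPX2 fell by 0.78 to 1.38, and E2F8, a repressor of the E2F family, fell by 1.83. The members not past the threshold were AURKA, AURKB, CCNB1, MCM4, PTTG1, RRM1 and TOP2A, the last at -1.61 ± 0.70 (adjusted p = 0.146) with values of 5.93 to 7.52 in KY1005.Siro.D28 and 7.71 to 8.59 in Auto.D36. The other TOP2A probe set fell past the threshold (-1.90, adjusted p = 0.0328). TOP2A itself passed in 4 of 24 alternative settings, among them no batch term (adjusted p = 0.037) and the 2 groups alone (0.00886). Outside the list, the condensin subunit NCAPG (-2.17 ± 0.56), the mitotic kinase MELK (-2.13 ± 0.54) and SHCBP1, a protein of the midbody (-2.41 ± 0.63), also fell. The count of members that fell was 7 without R.200, 9 without R.201 or R.221 and 10 without R.217 or R.220. Leaving out the arrays of high actin ratio also gave 7.

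**Figure D3:**
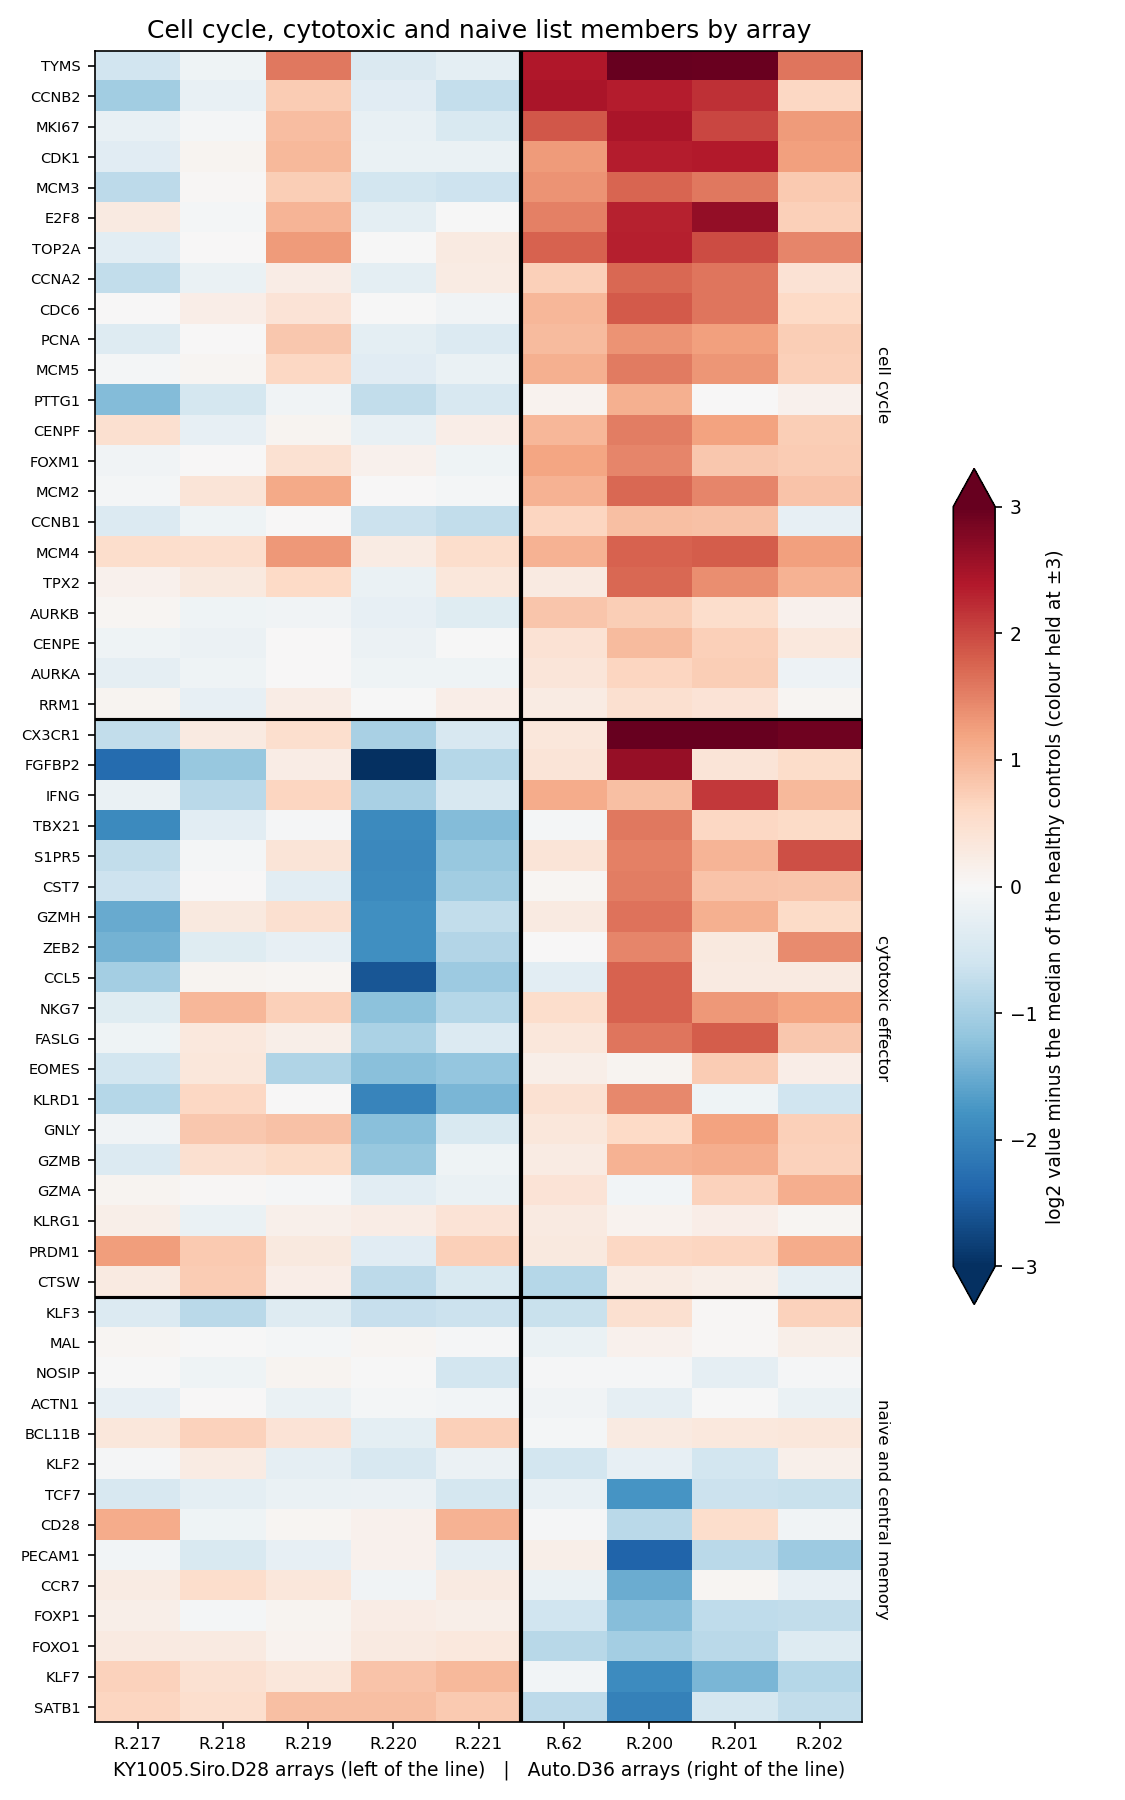
Rows are the tested members of the cell cycle, cytotoxic effector and naive and central memory lists, columns the 5 KY1005.Siro.D28 arrays (left of the line) and 4 Auto.D36 arrays, and colour the deposited log2 value minus the healthy median, held at ±3. Cell cycle rows are mostly red in the Auto.D36 columns and palest in R.202, and among KY1005.Siro.D28 columns R.219 is the reddest; in the cytotoxic rows R.62 is pale beside R.200.

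Genes of cytotoxic effector cells had a median below that of all genes, and the number that passed singly depended on the fit. Of 19 tested members 0 rose and 2 fell, beside 3.13% and 5.12% of all genes, and the median was -1.34. CX3CR1, the fractalkine receptor of terminal effector cells, read 5.45, 6.46, 6.68, 5.21 and 5.70 in KY1005.Siro.D28, against 6.53, 9.76, 9.49 and 9.09 in Auto.D36. Auto.D36 was split, with R.62 (day 30, batch 2) among the KY1005.Siro.D28 values and the 3 day 36 arrays above the healthy maximum of 7.61 (difference -2.64 ± 0.54, adjusted p = 0.00181, and -3.55 without R.62). CST7, an inhibitor of granule cathepsins, fell by 1.68 ± 0.53 (adjusted p = 0.0371), a call that ended without R.200, R.201, R.217, R.220 or R.221 (adjusted p up to 0.117) or when the high actin arrays were left out (0.15). Granzyme B (GZMB) read 12.44, 13.33, 13.42, 11.70 and 12.71 in KY1005.Siro.D28, against 13.09, 13.89, 13.93 and 13.52 in Auto.D36, and its difference of -0.89 ± 0.51 did not pass (adjusted p = 0.293). Interferon gamma (IFNG) read 4.35 to 5.97 in KY1005.Siro.D28, against 6.23 to 7.43 in Auto.D36 (-1.98 ± 0.77, adjusted p = 0.0948). TBX21, the transcription factor T-bet, was at -1.79 ± 0.63 (adjusted p = 0.0611), and passed without R.62, R.218 or R.219 (0.0345 to 0.0486), without a batch term (0.0135), with the 2 groups alone (0.0299), with array weights (0.0341), with the myeloid covariate (0.0327) and with the healthy arrays of batches 2, 4 and 6 alone (0.0447). The number of cytotoxic members that fell ranged from 1 (without R.200, R.201, R.217, R.220 or R.221) to 4 (without R.219), with 3 without R.62 or R.218, and was 7 without a batch term and 9 with the 2 groups alone.

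The CD8 genes moved with these. CD8A read 11.86, 12.13, 12.37, 12.11 and 11.58 in KY1005.Siro.D28, against 12.27, 13.07, 13.07 and 12.54 in Auto.D36, where R.62 lay below R.219 (difference -0.79 ± 0.22, adjusted p = 0.0189). CD8B fell by 1.16 ± 0.37 (adjusted p = 0.0359), while CD4 read 6.73 to 7.68 in KY1005.Siro.D28, against 6.6 to 7.65 in Auto.D36, a difference of 0.03 ± 0.28 (adjusted p = 0.972). CD40LG, the CD40 ligand of helper T cells, also fell, as given below, so that 3 of 7 members of the CD4 and CD8 lineage list fell and 0 rose. In sorted bulk T cells, fewer cells of a type and less RNA per cell cannot be told apart. The call of CD8A ended without R.200, R.201 or R.221 (adjusted p up to 0.0735), and that of CD8B also without R.217 or R.220 (up to 0.104). The other probe set of each gene did not pass (CD8A -1.20, adjusted p = 0.0567, and CD8B -0.48, adjusted p = 0.361). Averaged over both probe sets the CD8B call ended (-0.82 ± 0.30, adjusted p = 0.0729). Of the 7 lineage genes, 1 fell without R.200, R.201 or R.221 and 0 with the high actin arrays left out.

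Among homing and adhesion genes, 5 of 22 fell and 0 rose, beside 5.12% and 3.13% of all genes, and the list's median was -0.12. Besides CX3CR1 they were CXCR6, the receptor of CXCL16 (-2.37 ± 0.72, adjusted p = 0.0282), CCR2 (-2.05 ± 0.57, adjusted p = 0.0178), CXCR3, a receptor of interferon-induced chemokines (-1.16 ± 0.31, adjusted p = 0.0126), and ITGB2, the beta chain of LFA-1 (-0.84 ± 0.25, adjusted p = 0.0285). CXCR6 read 6.06, 5.83, 4.95, 4.94 and 5.26 in KY1005.Siro.D28, against 6.97, 6.92, 8.78 and 7.43 in Auto.D36. CCR2 averaged under 5.21 in KY1005.Siro.D28, which makes its size uncertain. The counts were 3 without R.201, R.220 or R.221. Without R.201 the adjusted p was 0.0793 for CCR2, and the call of CXCR6 ended without R.201, R.220 or R.221 (up to 0.102). The call of ITGB2 ended without R.200, R.202, R.217, R.220 or R.221 (up to 0.0748), and those of CXCR6, CXCR3 and ITGB2 with the high actin arrays left out (0.0817, 0.0558 and 0.0818).

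Of 20 costimulatory and checkpoint genes, 4 fell and 0 rose, beside 5.12% and 3.13% of all genes, with a median of -0.37. LAG3, an inhibitory receptor of activated T cells, read 7.31, 7.67, 7.60, 6.74 and 7.62 in KY1005.Siro.D28, against 8.66, 8.71, 10.32 and 9.51 in Auto.D36. The groups did not overlap (difference -2.09 ± 0.49, adjusted p = 0.00582), and every Auto.D36 array lay above the healthy maximum of 8.07. CD70, the ligand of CD27 on activated lymphocytes, read 6.52, 5.90, 6.52, 5.68 and 6.20 in KY1005.Siro.D28, against 7.73, 6.82, 8.07 and 7.71 in Auto.D36 (difference -1.78 ± 0.44, adjusted p = 0.00853). CD70 was 2.06 ± 0.31 above healthy controls in Auto.D36 and 0.28 ± 0.31 above them in KY1005.Siro.D28 (adjusted p = 0.621).

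CD40LG stood the other way round relative to healthy animals. It read 7.59, 8.33, 8.18, 7.97 and 8.10 in KY1005.Siro.D28, against 9.35, 9.05, 8.79 and 8.91 in Auto.D36 (difference -1.21 ± 0.32, adjusted p = 0.0141). KY1005.Siro.D28 lay -1.29 ± 0.23 from healthy controls (adjusted p = 0.0001) and Auto.D36 -0.08 ± 0.23 from them, and 3 of 3 probe sets of CD40LG fell. HAVCR2, the inhibitory receptor TIM-3, fell by 0.82 ± 0.27 (adjusted p = 0.0406), a call that ended without R.62, R.201, R.217, R.220 or R.221 (up to 0.206). The other HAVCR2 probe set was at -0.68 (adjusted p = 0.256), and averaged over both the adjusted p was 0.0802. The HAVCR2 call also ended with the myeloid covariate (0.0521) and with the 2 groups alone (0.061). With the high actin arrays left out the adjusted p was 0.116 for CD40LG and 0.13 for HAVCR2.

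The RNAs of the antibody's target and its receptor did not pass the threshold. TNFRSF4, which encodes OX40, read 8.10, 8.42, 8.37, 8.21 and 7.87 in KY1005.Siro.D28, against 7.97, 8.09, 8.11 and 8.13 in Auto.D36 (difference -0.05 ± 0.27, adjusted p = 0.937). TNFSF4, which encodes OX40 ligand, read 5.40 to 5.98 in KY1005.Siro.D28, against 5.27 to 6.18 in Auto.D36 (difference -0.13 ± 0.31, adjusted p = 0.858). Of 22 OX40 and NF-kB genes, 3 rose and 0 fell, beside 3.13% and 5.12% of all genes, with a median of 0.11. They were BCL2, given above, NFKB2, the p100 precursor of the non-canonical arm, and NFKBIZ, a nuclear member of the IkB family. NFKBIZ read 12.45, 11.74, 11.89, 11.76 and 12.18 in KY1005.Siro.D28, against 11.10, 9.68, 10.65 and 11.03 in Auto.D36 (difference 1.51 ± 0.32, adjusted p = 0.00213). NFKB2 rose by 1.86 ± 0.51 (adjusted p = 0.0161). In both genes a single probe set passed (of 3 for NFKB2), and averaged over all probe sets the adjusted p was 0.0529 for NFKB2 and 0.0769 for NFKBIZ. The NFKB2 adjusted p was 0.052 without R.200 and 0.0801 when the high actin arrays were left out. Without R.200 the list's count was 2.

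The regulatory T cell list had 0 of 15 members past the threshold in either direction by limma, with 3 at an unadjusted p under 0.05, and its median was -0.18. FOXP3, the lineage factor of regulatory T cells, read 5.26, 5.39, 4.87, 5.31 and 5.08 in KY1005.Siro.D28, against 4.91, 4.86, 5.29 and 5.25 in Auto.D36 (difference -0.00 ± 0.20, adjusted p = 0.998). Its values are close to 5.21, so a small change in FOXP3 could not be seen on these arrays. IL2RA, the alpha chain of the IL-2 receptor, read 6.45 to 7.08 in KY1005.Siro.D28, against 6.22 to 6.97 in Auto.D36 (0.42 ± 0.30, adjusted p = 0.432). CTLA4, an inhibitory receptor for the CD28 ligands, was at 0.78 ± 0.50 (adjusted p = 0.367).

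The feedback inhibitors SOCS2 and SOCS3 rose, while CISH, SOCS1 and SOCS5 did not pass. Of 22 cytokine receptor, JAK-STAT and SOCS genes, 4 rose (SOCS2, SOCS3, PIM1 and PIM3) and 1 fell (IL10RA), and the median was 0.32. SOCS3, the feedback inhibitor of gp130 cytokines, read 7.57, 7.11, 7.02, 5.50 and 6.13 in KY1005.Siro.D28, against 4.54, 4.61, 5.63 and 6.19 in Auto.D36, with R.202 above R.220 and R.221 (difference 1.53 ± 0.39, adjusted p = 0.0106). The survival kinase PIM3 read 9.14 to 10.01 in KY1005.Siro.D28, all above the healthy maximum of 9.01, against 8.38 to 8.93 in Auto.D36 (difference 0.95 ± 0.25, adjusted p = 0.0132). IL10RA, a chain of the IL-10 receptor, read 9.84 to 10.20 in KY1005.Siro.D28, against 10.62 to 11 in Auto.D36 (difference -0.92 ± 0.26, adjusted p = 0.0192). Without R.200 only 1 of the 22 rose, with adjusted p of 0.0536 for PIM3. The call of SOCS3 ended without R.62 or R.200 (up to 0.0645) and, with that of IL10RA, with the high actin arrays left out (0.0538 for SOCS3 and 0.141 for IL10RA).

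TGFBR2, the ligand-binding receptor of TGF-beta, had the smallest adjusted p of the named falls. TGFBR2 read 9.02, 9.67, 9.66, 9.17 and 8.75 in KY1005.Siro.D28, against 10.26, 10.47, 10.37 and 9.87 in Auto.D36. The groups did not overlap, the difference was -1.19 ± 0.20 (adjusted p = 0.000179), and 2 of 2 probe sets fell. It was KY1005.Siro.D28 that lay away from healthy controls, by -0.93 ± 0.14, while Auto.D36 differed from them by 0.26 ± 0.14 (adjusted p = 0.255). Each of the 4 Auto.D36 arrays lay above the healthy array of its own animal, by 0.27, 0.43, 0.11 and 0.09. It was the single member of 16 in the TGF-beta list that passed, beside 5.12% of all genes that fell, and the list's median was -0.10.

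Other large falls were in TP63, ST8SIA1, GFI1, PRR5L and METTL14. TP63, a transcription factor of the p53 family, read 5.44, 5.46, 5.47, 5.49 and 5.27 in KY1005.Siro.D28, against 7.19, 6.68, 8.69 and 7.64 in Auto.D36 (difference -2.52 ± 0.46, adjusted p = 0.000815). Of the 4 Auto.D36 values, 3 lay above the healthy maximum of 6.73. The other TP63 probe set was at -0.20 (adjusted p = 0.68), and averaged over both the difference was -1.36. ST8SIA1, the sialyltransferase that makes ganglioside GD3, read 4.61, 4.69, 5.04, 3.95 and 4.31 in KY1005.Siro.D28, against 5.33, 7.99, 6.79 and 7.20 in Auto.D36 (difference -2.41 ± 0.49, adjusted p = 0.00181). Its KY1005.Siro.D28 values lay under 5.21, so the size is uncertain. GFI1, a zinc finger repressor, read 6.33 to 7.39 in KY1005.Siro.D28, against 8.36 to 9.98 in Auto.D36 (difference -2.18 ± 0.61, adjusted p = 0.0188), and lay -1.90 ± 0.43 from healthy controls in KY1005.Siro.D28. PRR5L, a binding partner of mTORC2, read 5.95 to 7.60 in KY1005.Siro.D28, against 8.27 to 9.69 in Auto.D36 (difference -2.14 ± 0.63, adjusted p = 0.024). METTL14, a subunit of the RNA m6A methyltransferase, read 8.53, 10.95, 12.04, 8.64 and 10.16 in KY1005.Siro.D28, against 12.18, 13.84, 12.98 and 13.34 in Auto.D36 (difference -3.01 ± 0.99, adjusted p = 0.0431). The other probe sets of METTL14 read near 0 (-0.03 and 0.25). Without R.200 the adjusted p was 0.0778 for GFI1, the PRR5L call ended without R.200 or R.220 (up to 0.0753), and the METTL14 call ended without R.200, R.201, R.202, R.217, R.220 or R.221 (up to 0.111). With the high actin arrays left out the adjusted p was 0.127, 0.112 and 0.151 for GFI1, PRR5L and METTL14.

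Of 21 interferon response genes 1 rose and 2 fell, beside 3.13% and 5.12% of all genes. The list's median was -0.23, with 5 differences positive and 16 negative. IRF7, the regulator of type I interferon genes, read 8.40, 8.55, 8.72, 8.50 and 8.16 in KY1005.Siro.D28, against 9.13, 9.39, 9.36 and 9.05 in Auto.D36 (difference -0.85 ± 0.21, adjusted p = 0.00707), and was lower than healthy controls in KY1005.Siro.D28 (-0.97 ± 0.15). The other IRF7 probe set was at -0.17, and averaged over both the call ended (-0.51 ± 0.21, adjusted p = 0.118). MX2, a GTPase that restricts viruses, read 6.53, 7.67, 9.06, 6.91 and 7.75 in KY1005.Siro.D28, against 9.21, 8.70, 9.43 and 8.97 in Auto.D36, with R.219 inside the Auto.D36 range (difference -1.76 ± 0.52, adjusted p = 0.0263). OAS1, which makes the activator of RNase L, rose by 1.05 ± 0.23 (adjusted p = 0.00353), but another of its 4 probe sets fell, and averaged over all of them the adjusted p was 0.891. The MX2 call ended without R.62, R.201, R.217 or R.220 (up to 0.0816), and with the high actin arrays left out the adjusted p was 0.0754 for MX2 and 0.0765 for IRF7. Of 17 Th1, Th2 and Th17 regulators, 0 rose and 2 fell (median 0.04): CXCR3, given above, and IL12RB1, a chain of the IL-12 receptor (-0.62 ± 0.21, adjusted p = 0.0493), whose call ended without R.200, R.201, R.202, R.217, R.220 or R.221 (up to 0.196).

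The proteasome list was lower, with 0 of 20 members rising and 6 falling, beside 3.13% and 5.12% of all genes, and a median of -0.28. They were PSMB10, a subunit of the immunoproteasome (-0.81 ± 0.22), PSME2, of the interferon-induced activator (-0.60 ± 0.17), PSMA3 (-0.57 ± 0.16), PSMD1 (-0.55 ± 0.15), PSMB2 (-0.50 ± 0.15) and PSMB6 (-0.44). PSMB10 read 10.26, 10.61, 10.79, 10.16 and 9.92 in KY1005.Siro.D28, against 10.66, 11.12, 11.30 and 11.06 in Auto.D36, with R.219 above R.62. Relative to healthy controls PSMB10 was 0.79 ± 0.16 higher in Auto.D36 and -0.02 ± 0.16 in KY1005.Siro.D28 (adjusted p = 0.964). The number of members that fell was 2 without R.201 or R.221, 3 without R.217, 4 without R.200 or R.220 and 1 when the high actin arrays were left out. The PSMB10 call ended without R.201 or R.221 (adjusted p up to 0.055), that of PSME2 also without R.217 (up to 0.0739) and that of PSMB2 also without R.62, R.200 or R.220 (up to 0.0882). The other probe set was at -0.12 for PSMD1 and at -0.10 for PSMB2. Averaged over both probe sets of the gene, the adjusted p was 0.219 for PSMD1 and 0.0765 for PSMB2.

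Ribosomal protein, translation and splicing genes rose where they differed in the fit with batch, by 0.19 to 1.32. Of 25 cytosolic ribosomal proteins 5 rose and 0 fell, beside 3.13% and 5.12% of all genes (median 0.18). RPS16 read 8.91, 8.46, 8.25, 8.20 and 8.88 in KY1005.Siro.D28, against 7.56, 7.16, 7.15 and 7.44 in Auto.D36 (difference 1.32 ± 0.30, adjusted p = 0.00468), and RPL10A rose by 0.53 ± 0.13 (adjusted p = 0.00671). The others, RPL12, RPL30 and RPS9, rose by 0.19 to 0.43 and lost their calls with 5 or 6 of the 9 arrays left out singly, R.200 and R.221 among them for all 3 (adjusted p up to 0.144). Of 26 splicing factors 5 rose and 0 fell (median 0.10). HNRNPH1, which binds G-rich RNA, rose by 0.97 ± 0.22 (adjusted p = 0.00476), the serine/arginine-rich factor SRSF6 by 0.87 ± 0.17 (adjusted p = 0.00137) and HNRNPA1, a splicing repressor, by 0.56 ± 0.15 (adjusted p = 0.016). Averaged over all their probe sets the adjusted p was 0.219 for HNRNPH1 and 0.0833 for SRSF6, and with the high actin arrays left out it was 0.0799 for HNRNPA1. RBM39 and PRPF8 rose by 0.59 and 0.39, with calls that ended with 5 and 6 of the arrays left out singly, R.200, R.201, R.217 and R.221 among them for both (adjusted p up to 0.0771 for RBM39 and 0.128 for PRPF8). Translation factors had 2 of 22 higher (EIF5 and EIF4A2, by 0.68 and 0.35) and 0 lower, with a median of 0.21, and 1 was lower without a batch term or after quantile normalization. The EIF4A2 adjusted p was 0.0509 without R.200, and the EIF5 call ended without R.62, R.200, R.217 or R.221 (up to 0.0747). Averaged over all probe sets the adjusted p was 0.596 for EIF5 and 0.86 for EIF4A2. The ribosomal count was 2 without R.200 or R.221 and 3 without R.201, R.217, R.218 or R.220, and the splicing count was 3 without R.200, R.201, R.217 or R.221.

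MYC, the growth-promoting transcription factor, read 10.73, 11.25, 10.93, 10.16 and 10.05 in KY1005.Siro.D28, against 9.94, 7.93, 9.56 and 8.88 in Auto.D36 (difference 1.74 ± 0.45, adjusted p = 0.0104, and 0.062 without R.200). MYC is a member of the immediate early list, in which 1 of 14 genes rose (median 0.40). Of all genes 3.13% were higher and 5.12% lower, so calls of single members say little about this list or those that follow. Glycolysis and glucose uptake had 1 of 18 higher, PDK1, a kinase that inhibits pyruvate dehydrogenase (1.49 ± 0.47, adjusted p = 0.0356), and 0 lower, with a median of -0.08. Amino acid, ATF4 and one-carbon genes had 0 of 14 past the threshold by limma, with 1 at an unadjusted p under 0.05 (median 0.17). Sterol and lipid synthesis had 1 of 17 lower, ACLY, which makes cytosolic acetyl-CoA (-0.46 ± 0.14), with a median of -0.18. Oxidative phosphorylation had 1 of 25 higher (COX8A) and 2 lower (NDUFB3 and UQCRC1), with a median of -0.16. Lysosome and autophagy genes had 1 of 24 higher, the protease gene CTSL (1.59 ± 0.42, adjusted p = 0.0121), and 3 lower (TFEB, ATP6V1H and NEU1), with a median of -0.19. TFEB, the transcription factor of lysosomal genes, fell by 0.88 ± 0.23 (adjusted p = 0.0126). With the high actin arrays left out the adjusted p was 0.208 for PDK1, 0.0696 for CTSL and 0.0905 for TFEB. The PDK1 call ended without R.200, R.217 or R.221 (up to 0.15), that of ATP6V1H without R.62, R.201 or R.220 (up to 0.0877), and those of ACLY, COX8A, NDUFB3, UQCRC1 and NEU1 each with 5 to 7 of the 9 arrays left out singly, R.200, R.201 and R.217 among them for all 5 (up to 0.128).

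Chromatin regulators had 1 of 27 higher, close to the 3.13% of all genes, and 0 lower, with a median of 0.30. The gene was BPTF, a subunit of the NURF remodeller (1.03 ± 0.30, adjusted p = 0.0245). The apoptosis list had 2 of 16 higher, BCL2 and the death ligand gene TNFSF10 (1.66 ± 0.52, adjusted p = 0.0357), and 0 lower, with a median of -0.06. The heat shock list had 0 of 9 past the threshold by limma and 0 at an unadjusted p under 0.05. The core T cell list had 1 of 8 higher, CD7 (1.18 ± 0.37, adjusted p = 0.0349), with a median of -0.04. The BPTF call rests on 1 of 5 probe sets and ended without R.200, R.201 or R.220 (up to 0.0618), that of TNFSF10 without R.200, R.201, R.202, R.219 or R.220 (up to 0.161), and that of CD7 without R.200, R.202, R.217 or R.218 (up to 0.132). With the high actin arrays left out the adjusted p was 0.243, 0.192 and 0.146 for BPTF, TNFSF10 and CD7.

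**Figure D4:**
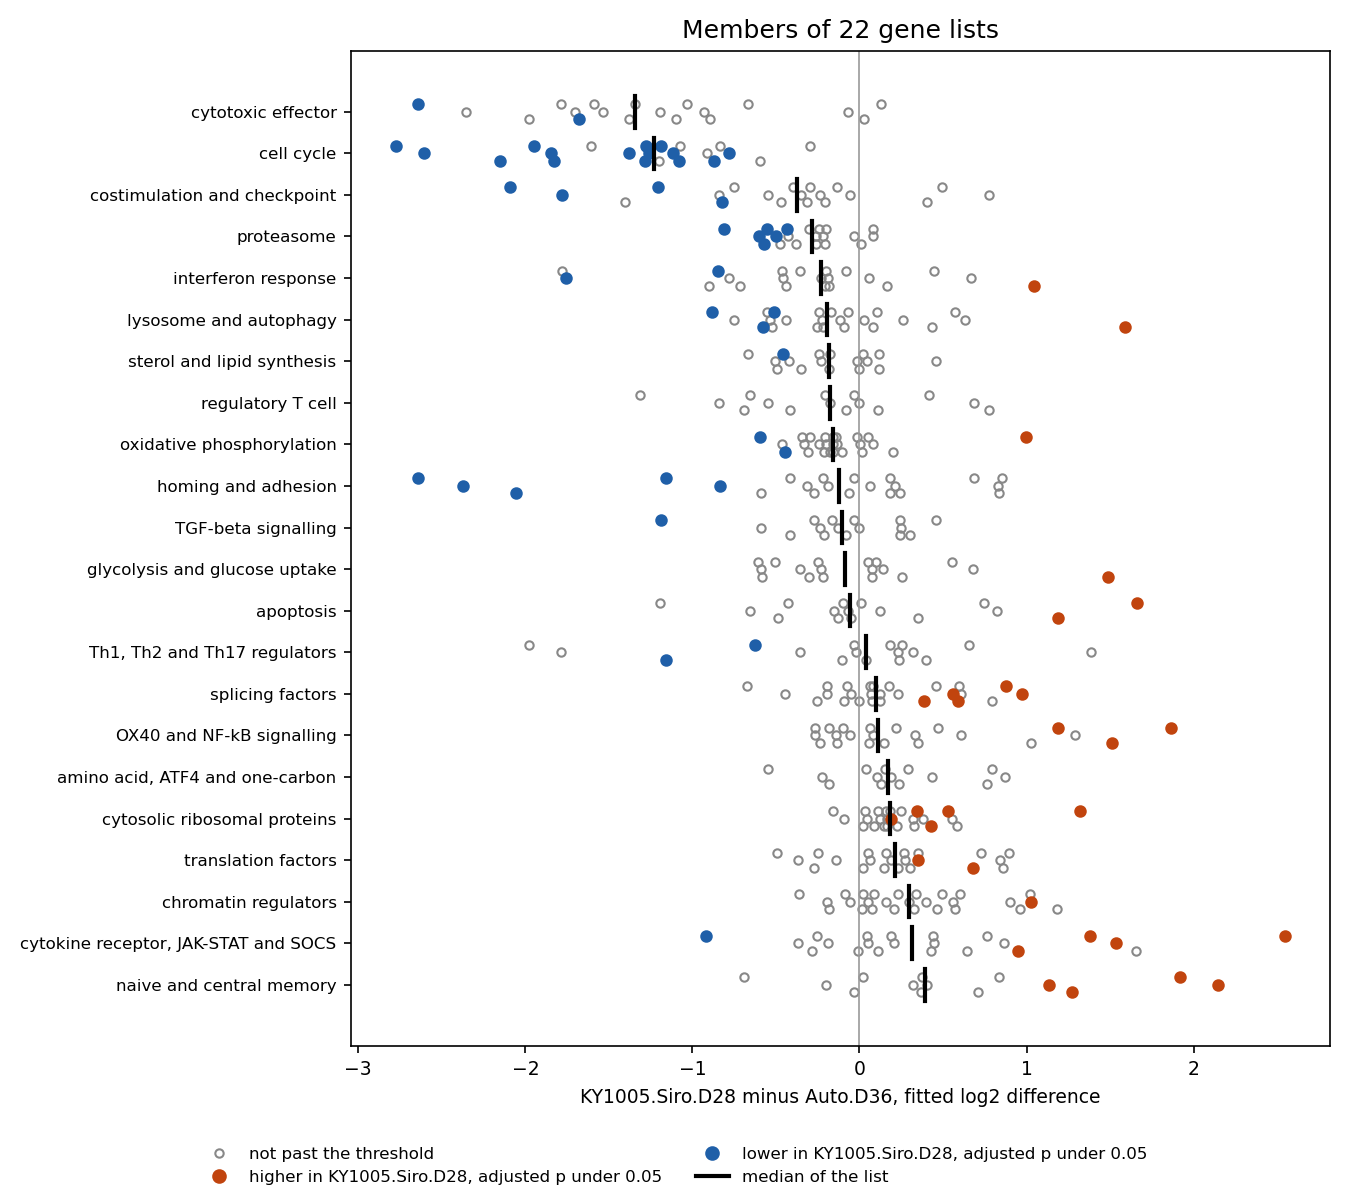
Fitted log2 differences (x axis, KY1005.Siro.D28 minus Auto.D36) of every tested member of 22 gene lists, one list a row, ordered by the list's median (black bar). Filled points passed an adjusted p of 0.05; the cell cycle and cytotoxic lists have the lowest medians (-1.23 and -1.34), and the naive and central memory list the highest (0.39).

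Markers of other blood cells did not pass the threshold in either direction. This held for 8 B cell, 5 plasma cell, 19 monocyte and myeloid, 9 NK cell, 8 neutrophil, 7 erythroid, 10 platelet and 4 dendritic cell genes, with medians from -0.63 (platelet) to -0.04 (erythroid). At an unadjusted p under 0.05 limma gave 1 myeloid, 1 erythroid, 2 platelet and 1 dendritic cell gene and 0 of the other lists. The summed level of the myeloid genes ran from -0.81 to 0.93 in KY1005.Siro.D28 and from -0.44 to 2.39 in Auto.D36, against -0.81 to 1.11 in healthy animals. The value of 2.39 belongs to R.62, without which the list's median was 0.37 in place of -0.41. With the myeloid level of each array as a covariate, 2547 probe sets passed. The NK cell level ran from -0.95 to 0.22 in KY1005.Siro.D28 and from -0.96 to 0.25 in Auto.D36, so the groups overlapped. The platelet level ran from -1.26 to 0.02 in KY1005.Siro.D28 and from -0.87 to 0.89 in Auto.D36. The log2 actin ratio ran from 0.24 to 0.92 in KY1005.Siro.D28 and from -0.39 to 0.57 in Auto.D36, and 3294 probe sets passed with it as a covariate. SERPINB2, an inhibitor of plasminogen activators made by monocytes, read 7.23, 4.20, 2.98, 6.11 and 6.22 in KY1005.Siro.D28, against 7.40, 2.81, 2.67 and 3.31 in Auto.D36, where R.62 stood apart (1.58 ± 0.77, adjusted p = 0.205). It passed without R.62 (3.05 ± 0.77, adjusted p = 0.00892) and with the myeloid level as a covariate (2.02 ± 0.60, adjusted p = 0.0256).

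The same regimens were also sampled earlier and later. KY1005.Siro.D14 held 5 arrays and Auto.D14 3, all at day 14, and KY1005.Siro.F held 4 arrays at days 97 to 106 and Auto.D100 4 at day 100. Animals recur across these times. R.217 to R.221 gave the KY1005.Siro.D14 arrays, and all of them but R.218 gave KY1005.Siro.F arrays. R.200, R.201 and R.202 gave the Auto.D14 arrays and, with R.60, the Auto.D100 arrays. At day 14, 2815 probe sets (8.88%) differed between the regimens, and at the late time 2278 (7.18%). The day 14 count was 0 without a batch term. It was also 0 without R.202 and 1 without R.201, the 2 Auto.D14 animals with a high actin ratio, 5904 without R.200 of Auto.D14, 609 without R.219 and 1822 without R.220. The late count was 1026 without R.220, 1181 without R.200 and 1281 without R.219. Further quantile normalization took the share of higher calls to 41.2% in place of 53.5% at day 14 and to 42.5% in place of 53.2% at the late time. Tested as a contrast of the 4 groups, the day 28 difference differed from the day 14 difference for 0 probe sets by limma, with 2623 at an unadjusted p under 0.05, and from the late difference for 133 (0.419%), 15 (0.0473%) more positive and 118 (0.372%) more negative at day 28. These contrasts treat repeated arrays of an animal as independent. With the animal as a random block the counts were 0 and 158. In the main fit the first count was 4 without R.62 and 169 without R.200 of Auto.D14. The second was 0 without R.62 of Auto.D36, R.219 of KY1005.Siro.F or R.60 of Auto.D100, 48 without R.219 of KY1005.Siro.D28, 52 and 62 without R.200 and R.202 of Auto.D100, and 82 and 524 without R.221 and R.217 of KY1005.Siro.F.

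PGAP1 was higher in the KY1005 and sirolimus animals at each time. It read 9.37 to 10.81 in KY1005.Siro.D14, against 8.24 to 8.86 in Auto.D14 (difference 2.45, adjusted p = 0.0151), and 9.26 to 10.08 in KY1005.Siro.F, against 7.67 to 8.86 in Auto.D100 (2.33, adjusted p = 0.00554). TGFBR2 read 9.23 to 10.12 in KY1005.Siro.D14, against 10.28 to 10.33 in Auto.D14 (-1.07, adjusted p = 0.0119), and 9.58 to 10.38 in KY1005.Siro.F, against 10.12 to 10.32 in Auto.D100 (-0.69, adjusted p = 0.0307), where the groups overlapped through R.217. LAG3 read 7.02 to 9.50 in KY1005.Siro.D14, against 8.81 to 10.32 in Auto.D14 (-1.76, adjusted p = 0.038), and 6.67 to 8.11 in KY1005.Siro.F, against 7.06 to 7.75 in Auto.D100 (-0.41, adjusted p = 0.669). CX3CR1 read 5.03 to 6.4 in KY1005.Siro.D14, against 5.39 to 7.64 in Auto.D14 (-0.68, adjusted p = 0.492), and 5.39 to 6.77 in KY1005.Siro.F, against 7.63 to 8.76 in Auto.D100 (-2.45, adjusted p = 0.0056). For none of these 4 genes did the day 28 difference itself differ from that at another time past the threshold. Of all genes, 2.89% were higher and 6.54% lower at day 14, and 3.12% higher and 4.95% lower at the late time. Cell cycle genes that fell numbered 6 of 22 at day 14 and 4 at the late time, with medians of -0.98 and -0.83. MKI67 read 5.21 to 7.49 in KY1005.Siro.F, against 6.61 to 7.30 in Auto.D100 (-1.48, adjusted p = 0.082). Naive and central memory genes that rose numbered 4 and 2 of 14, and 1 fell at the late time. Cytotoxic effector genes that fell numbered 1 of 19 at day 14 and 8 at the late time, with medians of -1.21 and -1.85. Of 21 interferon response genes 5 were higher and 1 lower at the late time, with a median of 0.85, against -0.23 at day 28. At the late time 10 of 19 myeloid and 4 of 8 neutrophil genes were higher in KY1005.Siro.F, with medians of 2.01 and 1.44, against 0 at day 28. The part of these cells in the late differences was not tested.

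**Figure D5:**
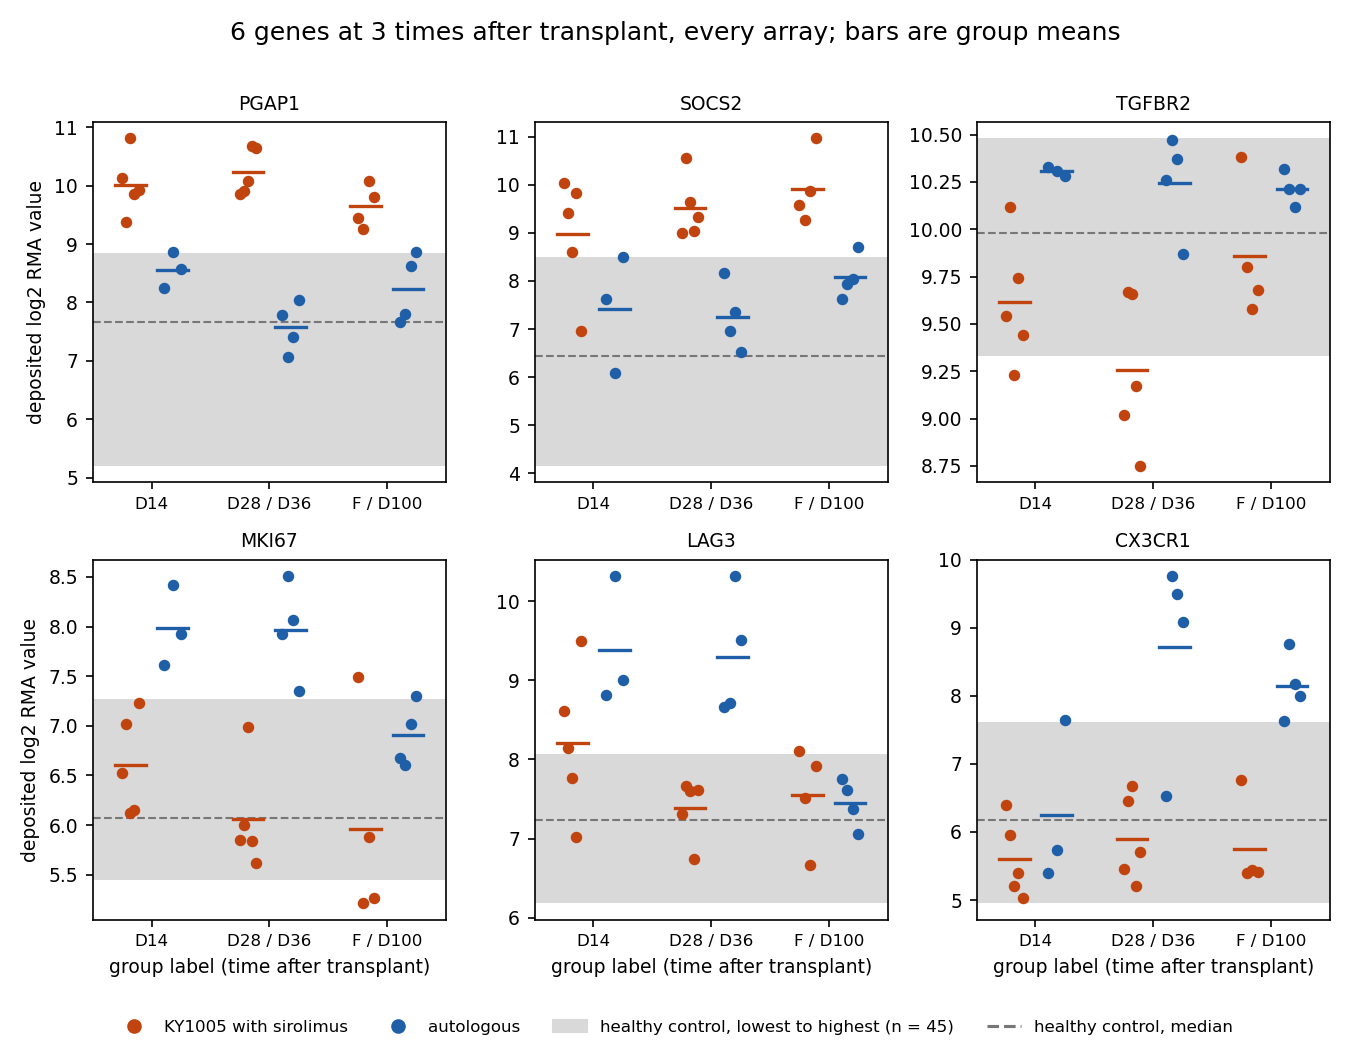
Deposited log2 RMA values (y axis) of PGAP1, SOCS2, TGFBR2, MKI67, LAG3 and CX3CR1 in every array at day 14, day 28 against days 30 to 36, and days 97 to 106 against day 100 (x axis); bars are group means and the grey band runs from the lowest to the highest of 45 healthy animals. PGAP1 is above the band in KY1005 and sirolimus arrays at each time, while the LAG3 groups overlap at the late time and the CX3CR1 groups at day 14.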

How the data were processed

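Log2 RMA signal intensities were deposited for 52865 probe sets in 102 arrays, which the authors computed with the RMA method of affy, per the submitters' processing notes (versions not given in the sources used here), from 70 to 85 ng of total RNA, per the labels. The 2 healthy arrays of R.201 were averaged. Probe sets that reached 5.21, the median over all arrays, in 3 or more arrays were kept and 99 control probe sets left out, which gave 31711. The platform annotation names a single gene for 24969 probe sets, several for 361 and no gene for the remaining 27535. RefSeq gene records of assembly T2T-MMU8v2.0 held 24629 of the identifiers. Where a gene had more than 1 such probe set, the brightest represented it. Differences were fitted with limma 3.58.1 in R 4.3.3, all 16 groups with the labelled batch (6 levels), 80 residual and 3.38 prior degrees of freedom, two-sided, at an adjusted p of 0.05. The batch term and the arrays of high actin ratio (log2 ratio above 2.5) were varied among other choices. Named were the 12 largest rises and falls with no overlap and no opposed probe set, up to 5 called members of each list and a fixed set. Genes of antigen receptors, MHC and KIR are not named. The groups, members and lists were chosen with earlier results of these data known. Replicates are separate animals, and the number of arrays limits the precision. No sequences or coordinates were used. Fitted differences depend on the batch term, since the groups share no batch, and whether the authors adjusted the values for batch is not given in the sources used here. PGAP1 averaged 10.23 and 7.57 in KY1005.Siro.D28 and Auto.D36, and its difference was 3.28 in the fit. It was also 3.28 when each group was set against the healthy arrays of its own batches. Both values adjust by the healthy arrays, so their match does not test the dependence on batch.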

Additional observations from a re-analysis of the deposited data

Results flagged for a closer look

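In 12 of 192 groups of 4 or 5 arrays (96 named genes, 2 groups each), 1 array stood apart from the others, where chance gives about 1 in 20. In KY1005.Siro.D28, R.219 had the highest values of MKI67 (6.99, next 6.00), TYMS (6.29, next 4.59) and NCAPG (6.27, next 5.21), 3 genes of dividing cells, and the lowest of FOXO1 (10.24, next 10.39). R.221 had the lowest TP63 value (5.27, next 5.44). In Auto.D36, R.62 had the highest values of CTSL (9.07, next 8.11) and SERPINB2 (7.40, next 3.31), and the highest summed myeloid level of the group. R.202 had the lowest CCNB2 value (6.31, next 7.86) and the highest EIF5 value (11.67, next 11.15). R.201 had the highest IFNG value (7.43, next 6.44) and the lowest PRPF8 value (9.19, next 9.41), and R.200 had the lowest PDK1 value (4.83, next 6.03).

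The difference between the regimens itself differed between day 28 and the late time for 133 probe sets, tested as a contrast of the 4 groups. PRPF8, a core subunit of the spliceosome, was among them, with a contrast of 0.64 (0.39 at day 28 and -0.25 at the late time).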

How the results depend on the processing

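The main count was 2531 probe sets. It was 3840 without a batch term, 4584 with the 2 groups alone and no batch term, 1624 with the 2 groups and the healthy arrays of batches 2, 4 and 6, 3955 with array weights, 1265 with a 2-fold minimum, 801 with the high actin arrays left out, and 1086 with the 2 groups and the healthy arrays of batches 2, 4 and 6 of low actin ratio, a fit added after seeing the data. The other 8 alternatives, the animal as a random block (2624, consensus correlation 0.11) and quantile normalization (2772) among them, lay within 1.5 times of it, and leaving out 1 array at a time gave 990 to 3033. The day 14 count was 0 without a batch term and 0 to 5904 over left-out arrays, and the late count was 1026 to 3414. The count of probe sets whose day 28 difference differed from the late one was 310 without a batch term and 0 to 524 over left-out arrays, and the one against day 14 was 0 to 169. The causes were not tested. Of the named genes 83 had a call, and none of these reversed direction. CD4 (-0.23 to 0.14), TNFRSF4 (-0.11 to 0.12), FOXP3 (-0.07 to 0.11) and TNFSF4 (-0.38 to 0.03), which had no call, took both signs. Of the 83, 43 lost their call with the high actin arrays left out, 20 averaged over all probe sets of the gene, 16 without the filter on low values, 16 with the 2 groups and the healthy arrays of batches 2, 4 and 6, and 13 with the 2 groups alone. Between KY1005.Siro.D28 and Auto.D36 no paired analysis was possible because they hold different animals and their replicate numbers only follow accession order. Animals recur across the times of a regimen, which only the fit with the animal as a random block took into account. The Auto.D36 animals also have healthy arrays, and Auto.D36 was compared with all healthy controls without pairing. The number of arrays and the missing common batch limit the comparison. So do signals near background, for MMP1, MS4A1, FOXP3, TYMS, SCML1, ST8SIA1 and CCR2 among others.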

Other observations

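Below the 12 leading genes in each direction, the next ranks held further genes with no overlap between the groups. The genes named here were picked after their values were seen. LRP6, a Wnt co-receptor, read 8.60, 8.62, 8.53, 8.71 and 8.55 in KY1005.Siro.D28, against 7.42, 6.41, 7.19 and 7.34 in Auto.D36 (1.8 ± 0.33, adjusted p = 0.00062). LYL1, a basic helix-loop-helix transcription factor, read 10.65, 10.02, 10.43, 10.55 and 10.89 in KY1005.Siro.D28, against 8.98, 8.35, 9.39 and 9.23 in Auto.D36 (1.95 ± 0.41, adjusted p = 0.002). CD58, the adhesion ligand of CD2, read 7.79, 8.52, 8.50, 7.44 and 7.89 in KY1005.Siro.D28, against 9.74, 10.14, 10.14 and 9.20 in Auto.D36 (-2.04 ± 0.46, adjusted p = 0.004), and 4 of its 4 probe sets fell. GBP1, an interferon-induced GTPase, was at -1.94 ± 0.51 (adjusted p = 0.012) at day 28 and at 0.66 at the late time, and its contrast between the times passed the threshold (-2.60).

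Of the probe sets past the threshold, 819 higher and 297 lower ones have no single gene in the platform annotation, against 581 higher and 834 lower ones that name a gene. They are not described here.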
